A study of Homo sapiens with 3 samples.

Results

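Cytosolic ribosomal protein genes were taken as the RefSeq GRCh38 protein-coding genes named RPL or RPS followed by a digit, with RPLP0, RPLP1, RPLP2 and RPSA, leaving out the S6 kinase genes and readthrough genes. The rule gave 88 genes of 20056 protein-coding genes. RPS4Y1 and RPS4Y2 lie on chromosome Y, which the peak lists do not cover, so 86 genes were analysed of 19974 on chromosomes 1 to 22 and X. They comprised 46 genes of large subunit proteins, 31 of small subunit proteins, 8 paralogues and RPS19BP1, which shares the naming pattern but encodes a binding partner of RPS19 and not a ribosomal protein. Lactylation of lysine 12 of histone H4 (H4K12la) was profiled in 2 untreated human renal cancer cell lines, 786-O and Caki-1, both grown as established cultures. The assay was CUT&Tag, in which a transposase tethered to an antibody tags the DNA beside the mark. The lists comprised 1 library of 786-O (replicate 2) and 2 libraries of Caki-1 (replicates 1 and 2), with 62777 peaks in 786-O and 60760 and 67839 peaks in the Caki-1 libraries. No comparison between the lines was tested, because 1 library against 2 cannot give an exact permutation p below 0.33, and the labels do not say whether the Caki-1 replicates were separate cultures.

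A cytosolic ribosome is assembled from ribosomal RNA and ribosomal proteins, the small subunit decoding the mRNA and the large subunit joining amino acids. The genes are transcribed in nearly every growing cell, and most of their mRNAs begin with a cytosine followed by a run of pyrimidines, the 5′ terminal oligopyrimidine (TOP) motif through which mTOR signalling controls their translation. Histone lactylation is an acylation that draws on lactate, and several lactylated histone residues have been mapped at active promoters.

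Promoter stretches of 8 genes are shown so that the starts that lacked a peak can be read beside those with strong ones. RPS27A, RPL37A, RPS6 and RPS3A were the 4 genes of ribosome components with a promoter entry whose start peaks ranked highest in all 3 lists. RPL13, RPL36, RPL41 and RPS21 had no start peak in any list. Sequences are from RefSeq (GRCh38.p14), each with the 150 bases before the annotated start and the first 20 transcribed bases, 5′ to 3′ on the gene's strand, so that the start is base 151. Positions are chr2:55232528-55232697 on the plus strand for RPS27A, chr2:216498694-216498863 (plus) for RPL37A, chr9:19380217-19380386 (minus) for RPS6, chr4:151099478-151099647 (plus) for RPS3A, chr16:89560507-89560676 (plus) for RPL13, chr19:5690145-5690314 (plus) for RPL36, chr12:56116483-56116652 (plus) for RPL41 and chr20:62386953-62387122 (plus) for RPS21. RPS27A and RPL13 have 3 annotated starts each, of which 1 is shown. For RPS27A it is the start nearest the middle of the 786-O peak, and for RPL13 the most upstream. Capitals mark, on either strand, the motif CCGGAAG of ETS factors, the motif TCTCGCGA, the NRF1 motif GCGCATGC, the SP factor motif GGGCGG and the CCAAT box, and from base 151 on a C with its run of pyrimidines.
RPS27A: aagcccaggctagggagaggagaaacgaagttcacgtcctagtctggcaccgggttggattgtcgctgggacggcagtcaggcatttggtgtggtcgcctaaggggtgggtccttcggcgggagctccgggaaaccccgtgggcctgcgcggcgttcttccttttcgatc
RPL37A: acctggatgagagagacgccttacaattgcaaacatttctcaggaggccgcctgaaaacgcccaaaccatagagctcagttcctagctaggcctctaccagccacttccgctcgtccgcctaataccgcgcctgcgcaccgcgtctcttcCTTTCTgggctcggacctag
RPS6: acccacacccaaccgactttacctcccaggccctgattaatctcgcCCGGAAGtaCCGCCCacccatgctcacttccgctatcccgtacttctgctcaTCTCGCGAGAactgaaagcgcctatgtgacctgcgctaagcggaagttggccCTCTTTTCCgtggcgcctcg
RPS3A: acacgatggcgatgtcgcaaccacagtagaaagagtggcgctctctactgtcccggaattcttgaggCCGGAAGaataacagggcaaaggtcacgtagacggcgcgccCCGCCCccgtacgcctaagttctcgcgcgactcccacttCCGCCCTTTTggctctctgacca
RPL13: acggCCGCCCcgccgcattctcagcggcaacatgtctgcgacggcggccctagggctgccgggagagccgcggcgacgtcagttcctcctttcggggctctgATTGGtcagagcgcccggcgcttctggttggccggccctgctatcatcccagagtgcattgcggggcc
RPL36: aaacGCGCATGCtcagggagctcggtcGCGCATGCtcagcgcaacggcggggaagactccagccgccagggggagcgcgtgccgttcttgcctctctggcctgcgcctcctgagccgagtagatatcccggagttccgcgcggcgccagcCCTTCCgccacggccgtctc
RPL41: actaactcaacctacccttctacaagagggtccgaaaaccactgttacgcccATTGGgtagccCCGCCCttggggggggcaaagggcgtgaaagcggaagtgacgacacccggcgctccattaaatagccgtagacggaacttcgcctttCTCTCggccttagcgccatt
RPS21: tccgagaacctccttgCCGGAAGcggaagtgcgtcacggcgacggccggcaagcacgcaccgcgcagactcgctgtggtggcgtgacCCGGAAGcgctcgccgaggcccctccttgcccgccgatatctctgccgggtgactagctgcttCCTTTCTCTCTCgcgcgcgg
A pyrimidine run of 12 bases opens the RPS21 transcript, which had no start peak, and one of 9 bases opens that of RPS6, which had strong ones. Both sets held CCGGAAG and GGGCGG, so these letters did not separate the genes with start peaks from those without.

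Peaks were nearly always present at these genes, and mostly at the start. A peak overlapped the gene extended by 5 kb on each side at 81 of 86 genes in 786-O, against 76.2% of all protein-coding genes. The counts were 77 and 81 of 86 in Caki-1 replicates 1 and 2, against 73.7% and 76.1% of all protein-coding genes. In all 3 lists together the extended gene held a peak at 71 genes (82.6%, against 65.4% of all), and in no list at 1, RPL10L (against 15.2% of all). Ribosomal protein genes are short, with a median length of 5025 bp, against 24170.5 bp over all protein-coding genes.

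Within 1 kb of an annotated start, or of either gene end for the 18 genes whose strand was not annotated in the tables used, a peak was found at 75 of 86 genes in 786-O (87.2%, against 52.8% of all protein-coding genes). In Caki-1 replicate 1 it was found at 70 (81.4%, against 55.6%) and in Caki-1 replicate 2 at 73 (84.9%, against 57.8%). A start peak was present in all 3 lists at 63 genes (73.3%), against 45% of all protein-coding genes, and in none at 6 genes, against 35% of all. At each of the 63 genes the strongest start peaks of the 3 lists overlapped each other, with a median of 571 bp in common, and the same held at 93.5% of the 8987 protein-coding genes with start peaks in all 3 lists. The starts of ribosomal protein genes therefore carried called peaks more often than the average gene in every library.

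**Figure D1:**
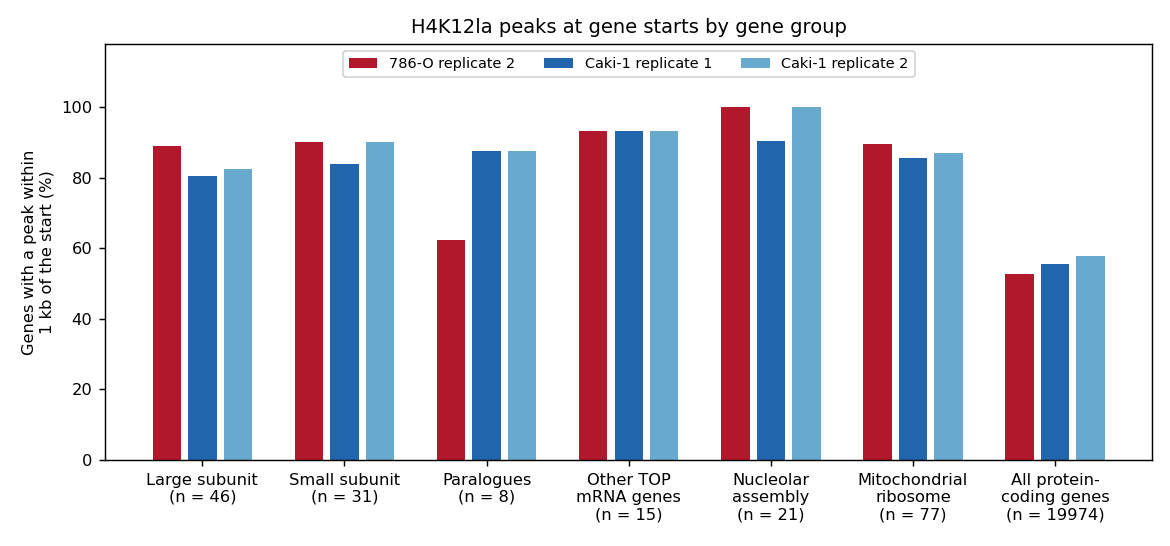
Share of genes with an H4K12la peak within 1 kb of the start (vertical axis, %), by gene group, in 786-O replicate 2 (red) and Caki-1 replicates 1 and 2 (dark and light blue); bars are single libraries and n is the number of genes. Large and small subunit genes stand above 80% in each library and all protein-coding genes between 52.8% and 57.8%.

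Both subunits were covered. Start peaks in all 3 lists were found at 33 of 46 large subunit genes (71.7%) and 25 of 31 small subunit genes (80.6%). Of the 131 pairs of a gene and a peak in its extended span in 786-O, 75 lay at the start, 11 elsewhere in the gene and 45 in the flanks. The Caki-1 replicates had 116 and 128 such pairs, with 71 and 74 at the start. Of the peaks away from the start, 24 in 786-O and 22 in each Caki-1 list lay within 1 kb of another gene's start. The start was thus the most frequent place of a peak, and the extended span also counted peaks that belong by position to neighbours.

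The peaks at these starts had median ranks below those at other genes in both Caki-1 lists, and close to them in 786-O. The value the authors gave each peak was used only as its percentile rank within its own list, 100 being the strongest, because no header names the column and its values read like a signal in 786-O, as in Caki-1 replicate 1, but like a score in Caki-1 replicate 2. The strongest start peak had a median rank of 84.6 in 786-O, against 85.5 over all protein-coding genes with a start peak. In Caki-1 replicates 1 and 2 the medians were 76.2 and 80.8, against 82.2 and 84.5. The order in 786-O turned with the strongest peak of the extended span (85.5, against 84.6) and with ranks by width (78.5, against 77.8), and in Caki-1 it did not. Ranks of 90 or more were reached by 33.3% of the start peaks of these genes in 786-O, with 21.4% and 26.0% in Caki-1 replicates 1 and 2, against 38.7%, 35.2% and 37.9% over all genes. Counted per gene, with or without a start peak, the shares were 29.1% in 786-O, with 17.4% and 22.1% in Caki-1. Over all protein-coding genes they were 20.5%, 19.5% and 21.9%, so in 786-O the order turned with the denominator. RPL7, RPS27A, RPL37, RPL37A, RPS6, RPL30 and RPS15A, 7 of 86 genes, had such a peak in all 3 lists, against 11.5% of all protein-coding genes. Among genes with start peaks in all 3 lists the share was 11.1%, against 25.6% over all such genes. Median widths were 755 bp in 786-O, with 679.5 and 742 bp in Caki-1, against 746, 763 and 869 bp over all genes. The values of single genes below are called signal or score by that reading, in the order 786-O, Caki-1 replicate 1 and Caki-1 replicate 2, and they are not to be compared between lists.

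**Figure D2:**
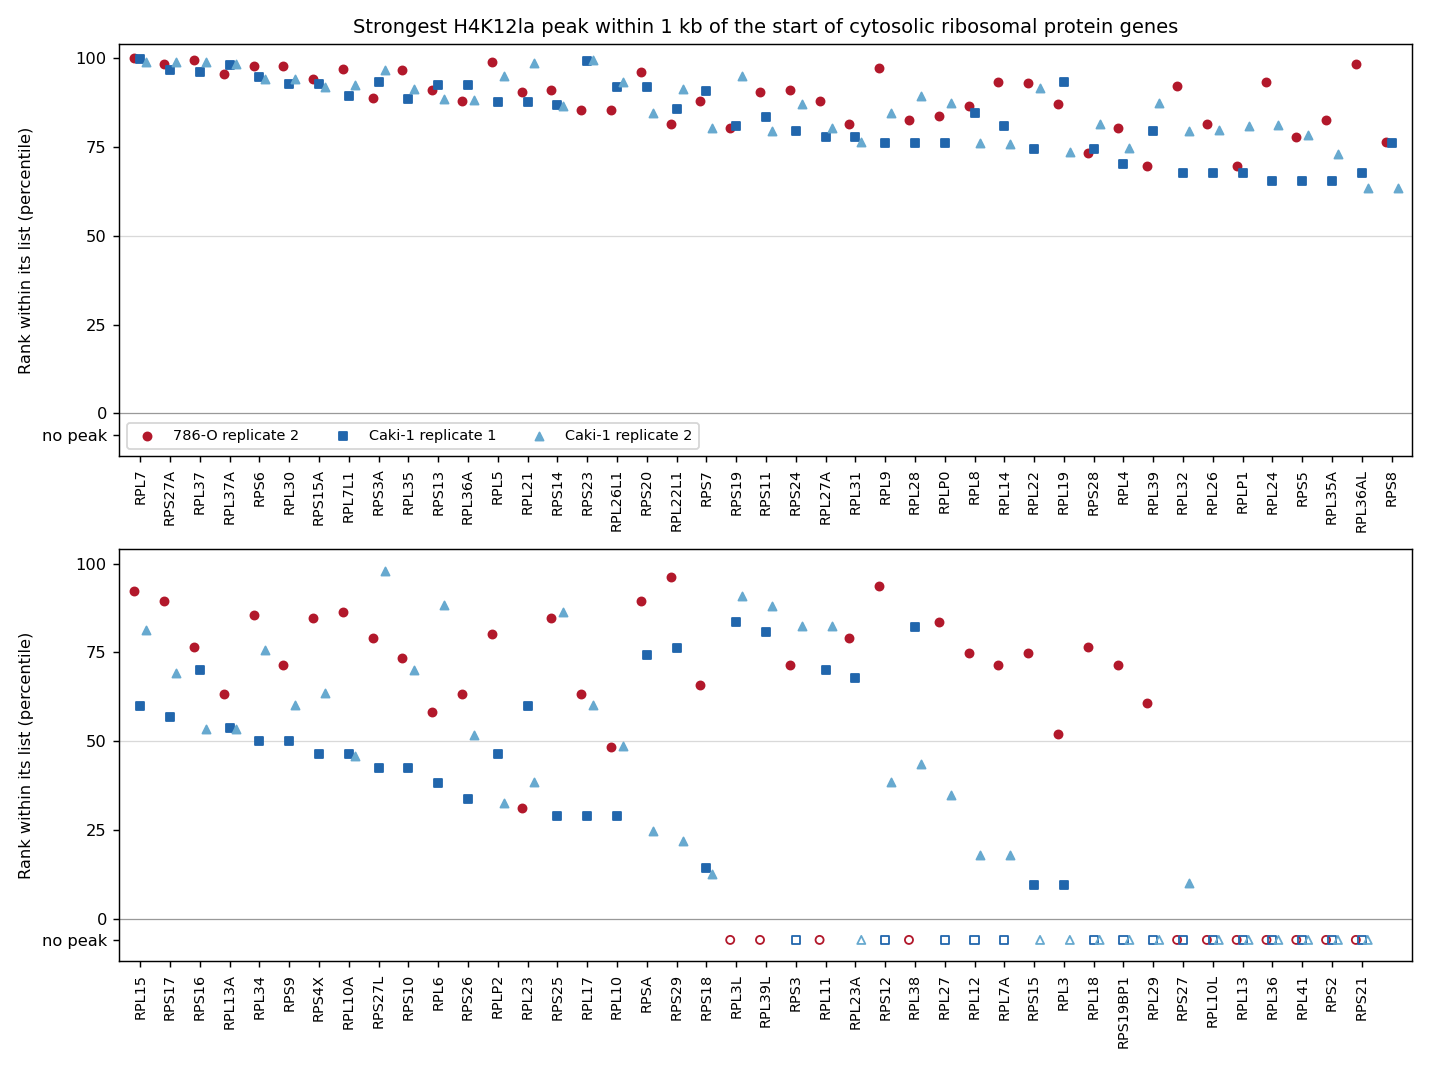
Percentile rank within its list (vertical axis) of the strongest peak within 1 kb of the start of each gene shown, for 786-O replicate 2 (red circles) and Caki-1 replicates 1 and 2 (dark blue squares, light blue triangles); open symbols below 0 mark a gene with no start peak in that list. Genes are ordered by the number of lists with a start peak and then by their lowest rank: RPL7 comes first, and the genes from RPL3L on lack a start peak in 1 or more lists.

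The 10 genes that ranked highest in all 3 lists comprised 5 large subunit genes, 4 small subunit genes and the paralogue RPL7L1. RPL7, a large subunit protein that binds RNA, had a start peak signal of 139 in 786-O, against 107 in Caki-1 replicate 1 and a score of 326 in replicate 2. Its ranks were 99.9 in 786-O, with 99.8 and 98.9 in Caki-1, and the peak lies within 1 kb of the start of the neighbouring gene RDH10. RPL37, a zinc-binding protein, had 101 in 786-O, with 57 and 336 in Caki-1, and RPL37A, a separate zinc-binding protein, had 61 in 786-O, with 70 and 292 in Caki-1. No other gene's start lay within 1 kb of their peaks. RPL30 had 72 in 786-O, with 48 and 187 in Caki-1, and RPL35, at the exit of the nascent peptide tunnel, had 66 in 786-O, with 41 and 158 in Caki-1. The RPL35 peak also lies at the start of ARPC5L.

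Among small subunit genes, RPS27A, which encodes ubiquitin fused to a small subunit protein, had a start peak signal of 78 in 786-O, with 60 and 319 in Caki-1, from a peak at chr2:55231913-55233070 in 786-O that also lies at the start of CLHC1. RPS6, the substrate of the S6 kinases, had 73 in 786-O, with 53 and 189 in Caki-1, at chr9:19379982-19380793 in 786-O. RPS15A had 56 in 786-O, with 48 and 163 in Caki-1. These 3 genes ranked above 90 in every list. RPS3A had 45 in 786-O, with 49 and 234 in Caki-1, at ranks of 88.7 in 786-O, with 93.3 and 96.7 in Caki-1.

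Some genes differed in rank between the lines or the libraries. RPS23, a protein of the decoding centre, had 41 in 786-O (rank 85.5), with 85 and 429 in Caki-1 (ranks 99.3 and 99.6). RPL5, which binds 5S ribosomal RNA and, when free, the p53 regulator MDM2, had 85 in 786-O (rank 98.9), with 40 and 201 in Caki-1 (ranks 87.7 and 95.0). RPS23 thus stood higher in both Caki-1 lists and RPL5 in 786-O, which was not tested. The 2 Caki-1 ranks of RPL5 lay further apart than its ranks in 786-O and Caki-1 replicate 2. Other genes split the Caki-1 replicates: RPS27L, a paralogue induced by p53, ranked 79.1 in 786-O, with 42.3 and 98.0 in Caki-1, and RPS29 ranked 96.1 in 786-O, with 76.2 and 22.0 in Caki-1. The annotated start of RPS29 used here lies at the start of LRR1, so this peak cannot be assigned to either gene. Caki-1 replicate 2 also had a peak elsewhere in RPS29, of 107 at rank 82.4. By the strongest peak of the extended span RPS29 therefore did not split the Caki-1 replicates in this way. By start peaks, the spread between the Caki-1 replicates at RPS27L and RPS29 is as large as the difference between the lines.

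Among genes with a start peak in all 3 lists, RPL10 and RPL23 had the lowest highest rank. RPL10, a late-joining protein needed for release of the large subunit for translation, had 21 in 786-O, with 16 and 47 in Caki-1, none above rank 48.7. RPL23, which like RPL5 can bind MDM2 when free, had 17 in 786-O, with 24 and 39 in Caki-1. RPL13A, RPS26 and RPL17 completed the 5 genes whose highest rank was lowest, at 63.3 each. RPS18, at the head of the small subunit, had 27 in 786-O, with 13 and 24 in Caki-1, the lowest rank of these peaks in Caki-1 replicate 2. Of the stalk genes, RPLP0, the stalk base, had 39 in 786-O, with 31 and 130 in Caki-1, RPLP1 had 29 in 786-O, with 27 and 101, and RPLP2 had 36 in 786-O, with 20 and 35. RPLP2 ranked 80.3 in 786-O, with 46.3 and 32.6 in Caki-1.

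The 6 genes with no start peak in any list were RPL13, RPL36, RPL41, RPS2, RPS21 and RPL10L. RPL10L, a testis paralogue of RPL10, had no peak in its extended span either. At RPL36 the strongest peak of the extended span lay 3051 bp from the gene in 786-O, with a value of 54, and 3008 and 3013 bp from it in the Caki-1 lists, with values of 70 and 345. That peak lay within 1 kb of no other protein-coding gene's start and ranked 93.4 in 786-O, with 98.2 and 99.1 in Caki-1, so RPL36 counts among the genes with strong peaks by extended span and among those without one by start. RPL13 had a peak inside the gene in each list, of 27 in 786-O, with 25 and 50 in Caki-1. RPS2, at the mRNA entry side of the small subunit, had a peak of 31 in 786-O and of 21 in Caki-1 replicate 1, both at the start of NDUFB10. RPS21 had no peak in 786-O, and in Caki-1 replicates 1 and 2 its peaks, of 22 and 45, lay 4018 and 4160 bp from the gene. RPL41, which encodes the shortest of these proteins, had a peak with a score of 17 in Caki-1 replicate 2, at the start of ZC3H10.

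Few genes had peaks in 1 line only. A start-window peak in 786-O with none in the extended span in either Caki-1 library was found at 1 of 86 genes, against 1.58% of all protein-coding genes. RPL38 and RPL39L showed the reverse pattern, a start peak in each Caki-1 list with no 786-O peak in the extended span, 2 of 86 genes against 2.4% of all. RPL38, which in mouse embryos is needed for translation of some Hox mRNAs, had 35 and 42 in the Caki-1 lists. RPL39L, a paralogue of RPL39 enriched in testis, had 34 and 134. Both counts were close to the share of all genes, but the 786-O count depended on the setting. Without Caki-1 replicate 1 it was 3 (3.49%, against 2.35% of all genes), and without Caki-1 replicate 2 it was 7 (8.14%, against 3.03%). With no guard distance around the start window the counts were 4 in 786-O only (4.65%, against 3.65%) and 4 in Caki-1 only (4.65%, against 7.06%). Among the stronger 50% of each list the 786-O count was 10 (11.6%, against 2.47%), above the share of all genes, and the Caki-1 count was 2 (2.33%, against 2.88%).

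In all, 17 of the 86 genes had a start peak in 1 or 2 of the lists. Over all protein-coding genes 45% had one in all 3 lists and 35% in none, which leaves a similar share with 1 or 2. The genes below are therefore given as a description. RPL11, the partner of RPL5 in the 5S particle, had no start peak in 786-O and had 28 and 107 in Caki-1 replicates 1 and 2. RPL29 had 25 in 786-O and no start peak in Caki-1, and RPL3, close to the peptidyl transferase centre, had 22 in 786-O, with 12 in Caki-1 replicate 1 and none in replicate 2. RPS12 ranked highest of these in 786-O, with 55 (rank 93.8), against none in Caki-1 replicate 1 and 39 in replicate 2. RPS3 had 30 in 786-O, against none in Caki-1 replicate 1 and a score of 107 in replicate 2.

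Among the 8 paralogues, which replace or accompany a ribosomal protein in some tissues, 5 had start peaks in all 3 lists. RPL7L1 had 67 in 786-O, with 42 and 168 in Caki-1, RPL26L1 had 41 in 786-O, with 46 and 176, and RPL22L1 had 37 in 786-O, with 38 and 158. RPL36AL had 78 in 786-O, with 27 and 63 in Caki-1, from a peak that also lies at the start of MGAT2. RPL3L, a striated muscle paralogue of RPL3, is 1 of the genes without an annotated strand, for which either gene end counted. It had none in 786-O and had 36 and 153 in Caki-1, from a peak at the start of MSRB1. That peak lies at the lower-coordinate end of RPL3L, which may not be its start. RPS27L made the fifth. RPL10L, RPL39L and RPL3L, known from testis or muscle, lacked a start peak in 786-O, but RPL39L and RPL3L had one in each Caki-1 list. A link between tissue and peaks was not tested.

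Genes mutated in Diamond-Blackfan anaemia, an inherited red cell aplasia, had start peaks in all 3 lists at 17 of 21 (81.0%). The share was 73.3% over the 86 genes and 45% over all protein-coding genes. RPS19, the gene most often mutated in it, had 36 in 786-O, with 34 and 201 in Caki-1. Of the 5 genes on the short arm of chromosome 3, which is often lost in clear cell renal carcinoma, all 5 had a start peak in 786-O and 4 in each Caki-1 library. Over the 86 genes the shares were 87.2% in 786-O, with 81.4% and 84.9% in Caki-1. Over all protein-coding genes of chromosome 3, both arms, they were 58.3% in 786-O, with 61.0% and 63.2% in Caki-1. RPSA, which also acts as a laminin receptor, had 46 in 786-O, with 30 and 30 in Caki-1. The equal Caki-1 values are a signal and a score, and RPSA ranked 89.3 in 786-O, with 74.3 and 24.6 in Caki-1. RPL14 had 54 in 786-O, with 34 and 86 in Caki-1, and RPL32 had 51 in 786-O, with 27 and 97. RPL15 had 51 in 786-O, with 24 and 103 in Caki-1. DNA copy number was not measured, and its part in these values was not tested.

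The ribosomal protein genes were next set beside other genes of the same pathway. FAU, which encodes a ribosomal protein under another name, had a start peak of 40 in 786-O and none in Caki-1. Of 15 genes with other TOP mRNAs, such as translation elongation factors, 14 had start peaks in all 3 lists, at median ranks of 95.7 in 786-O, with 92.8 and 89.8 in Caki-1. PABPC1, the poly(A)-binding protein, had 135 in 786-O, with 90 and 335 in Caki-1, and EEF2, a translocation factor, was the gene without any. Nucleolar assembly factors had start peaks in all 3 lists at 19 of 21, RNA polymerase I genes at 6 of 7 and mitochondrial ribosomal protein genes, which encode the ribosome of a separate organelle, at 63 of 77 (81.8%). NPM1, the nucleolar chaperone nucleophosmin, had 109 in 786-O, with 100 and 374 in Caki-1. The cytosolic genes, at 73.3%, were below these lists in share, and their median ranks in Caki-1 were below those of the mitochondrial list, which were 86.4 in 786-O, with 87.2 and 90.0 in Caki-1.

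Peaks sat slightly upstream of the start. For 68 genes with an annotated strand, coverage by a peak was highest 50 bp before the start, at 77.9% of genes in 786-O, 72.1% in Caki-1 replicate 1 and 77.9% in replicate 2, against 42.3%, 45.7% and 47.6% of 15812 protein-coding genes. At 500 bp upstream it was 33.8% in 786-O, with 30.9% and 33.8% in Caki-1, against 15.4%, 17.2% and 21.2%. At 500 bp downstream it was 14.7% in 786-O, with 13.2% and 22.1% in Caki-1, against 19.0%, 20.2% and 25.7%. Coverage of these genes was therefore above the average 500 bp upstream and below it 500 bp inside the gene.

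**Figure D3:**
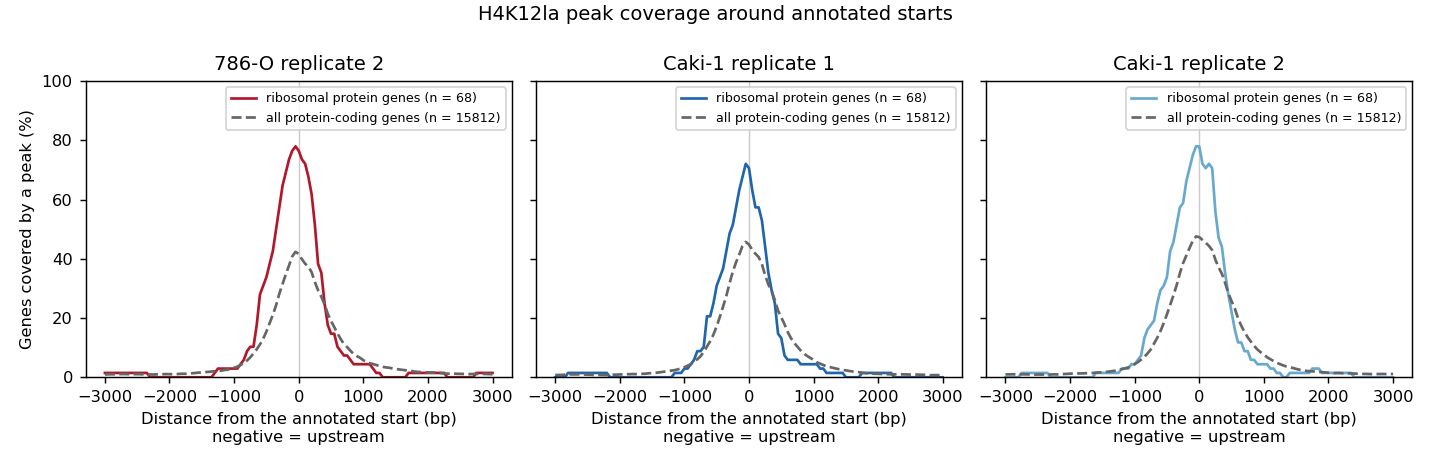
Share of genes covered by an H4K12la peak (vertical axis, %) at each distance from the annotated start (horizontal axis, bp, negative upstream), for 68 ribosomal protein genes (solid) and 15812 protein-coding genes (dashed) in each library. The solid lines peak 50 bp upstream at 77.9%, 72.1% and 77.9%, and fall below the dashed lines by 500 bp downstream.

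The position within the peak pointed the same way. The summit of the strongest start peak lay downstream of the start at 9 of 60 genes in 786-O (15.0%, against 33.5% of all protein-coding genes) and 8 of 55 in Caki-1 replicate 1 (14.5%, against 33.9%). The median summit position was -89.5 bp in 786-O, with -89 bp in Caki-1 replicate 1, where minus is upstream, against -58 and -57 bp over all genes. Measured by the centre of the peak the contrast was smaller, at 41.7% downstream in 786-O, with 41.8% in Caki-1 replicate 1, against 50.6% and 48.8%. Caki-1 replicate 2, whose list gives no summit, had 35.6% downstream by centre, against 50.7%. Among start peaks at no other gene's start, the summit lay downstream at 16.3% of genes in 786-O and 19.5% of those in Caki-1 replicate 1, against 36.3% and 36.1% over all genes. For the same peaks the shares by centre were 53.5% in 786-O, with 48.8% and 43.2% in Caki-1, against 55.7%, 53.1% and 54.9%. The upstream placement thus showed by summit, in the lists that give one. By centre, with peaks shared with a neighbour's start left out, the contrast with all genes was small in 786-O and Caki-1 replicate 1. It was larger in Caki-1 replicate 2, and in 786-O most of these centres lay downstream.

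Several motifs were more frequent in the promoters of these genes than in other promoters. Each promoter was taken as the 300 bases from 250 before to 50 after the most upstream annotated start. CCGGAAG, bound by ETS factors, was found at 23 of 68 genes (33.8%, against 14.1% of 15812 promoters). RPS27A is among them by that start, though its stretch shown above, at another start, holds no CCGGAAG. TCTCGCGA was found at 11 (16.2%, against 1.74%), and AAGATGG, the YY1 motif, at 9 (13.2%, against 6.36%). TATAAA was at 7 (10.3%, against 9.75%), GGGCGG at 37 (54.4%, against 58.3%), CCAAT at 24 (35.3%, against 36.4%), GCGCATGC, the NRF1 motif, at 3 (4.41%, against 4.28%) and CACGTG at 4 (5.88%, against 8.82%). Both strands were searched, CACGTG reads the same on both, and the RPS6 stretch holds TCTCGCGA on both strands, overlapping. A C at the start followed by 4 or more of C or T was found at 43 of 68 genes (63.2%, against 4.59%). Among the 51 genes with start peaks in all 3 lists, 18 held CCGGAAG and 32 the pyrimidine start, beside 5 and 11 of the 17 others. TATAAA was held by 3 of the 51 and 4 of the 17.

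Pseudogenes of these genes, many of them reverse-transcribed copies that lack the parent's promoter, rarely had peaks. Of 1985 pseudogenes named after them, a peak lay within 1 kb of either end at 5.39% in 786-O, with 5.64% and 7.10% in Caki-1, against 8.39%, 7.95% and 8.60% of 14473 other pseudogenes. In all 3 lists together, 45 had one (2.27%), while 63 of the 86 parent genes (73.3%) did by the same measure. Leaving out pseudogenes within 2 kb of a protein-coding start left 1918, at 4.95% in 786-O, with 5.06% and 6.57% in Caki-1. RPL21 has 137 such copies, RPL23A 95, RPL7A 80 and RPSA 74. No source used here gives how reads that match several copies were mapped, and peaks at near-identical copies are uncertain.

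**Figure D4:**
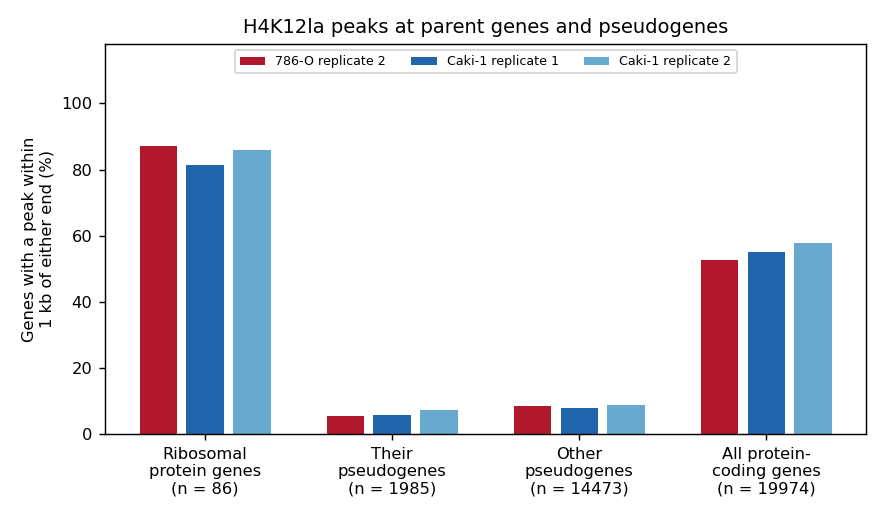
Share with an H4K12la peak within 1 kb of either end (vertical axis, %) for 86 ribosomal protein genes, their 1985 pseudogenes, 14473 other pseudogenes and 19974 protein-coding genes, in 786-O replicate 2 (red) and Caki-1 replicates 1 and 2 (dark and light blue). The parent genes stand above 81% in each library and their pseudogenes at 7.10% or below.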

How the data were processed

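H4K12la CUT&Tag peak lists of 3 libraries were used, 1 of 786-O and 2 of Caki-1. The other 786-O replicate was not analysed here. Per the submitters' processing notes, fastp 0.19.6, Bowtie2 and deepTools were used with hg38 (GRCh38). No source used here names the peak caller, threshold, control or depth. No interval that needs depth was formed. The authors called peaks per library. The last column of the deposited lists was read as a signal in 2 lists (786-O, Caki-1 replicate 1) and as a score in Caki-1 replicate 2, neither described as scaled to depth, and it was ranked within each list with ties at their mean. Gene ends and promoter starts came from RefSeq tables of GRCh38.p14, matched by symbol. Promoter entries existed for 68 of the 86 genes and 79.2% of all protein-coding genes.

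The genes and lists were chosen with earlier results of these data known. The text names the 10 genes whose lowest start rank was highest, the 5 whose highest rank was lowest, genes lacking a peak in 1 or more lists, and members of the lists by role. RPS23, RPL5, RPS27L, RPS29, RPS18, PABPC1 and NPM1 were named after their values were seen. Single-gene values of some genes are not reported here. Shares over genes are descriptions without p-values. The overlap steps were tested on simulated intervals. Python 3.11.15, pandas 2.3.3, NumPy 2.4.6 and matplotlib 3.10.9 were used.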

Additional observations from a re-analysis of the deposited data

How the results depend on the processing

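The counts of start and extended-span peaks were repeated with other windows, overlaps, peak sets and gene sets and with each library left out. Median ranks, counts in 1 line only and summit shares had fewer alternatives, and the other counts had none. Of 91 alternative values, 80 stayed within 1.5 times or 1 spread of the main value and 11 moved further. The limit of 1.5 times applied to counts. The spread, used for median ranks and summit shares in either line, was the standard deviation of the 2 Caki-1 values. Counts of start and extended-span peaks could not rise past their limit within 86 genes, so the tally says little about them. Their shares beside those of all genes are the better guide. Ranked by width, the median start peak stood at 78.5 in 786-O, with 69.5 and 68.2 in Caki-1, against 77.8, 76.9 and 78.0 over all genes. By the strongest peak of the extended span it was 85.5 in 786-O, with 76.2 and 82.4 in Caki-1, against 84.6, 82.2 and 85.0. In 786-O both turned the order of 84.6 against 85.5. Peaks in 786-O only were at 1.16% of the genes against 1.58% of all, an order that turned with no guard distance (4 genes, 4.65% against 3.65%), without 1 Caki-1 library (3 to 7 genes, 3.49% against 2.35% without replicate 1 and 8.14% against 3.03% without replicate 2) and in the stronger 50% of each list (10 genes, 11.6% against 2.47%). Peaks in Caki-1 only numbered 4 with no guard distance (4.65% against 7.06%), and with a guard of 10 kb the order turned (2.33% against 1.84%). The summit shares downstream became 41.7% in 786-O, with 41.8% in Caki-1 replicate 1 by the centre, and 19.5% in Caki-1 replicate 1 for peaks at no other gene's start, alternatives chosen after seeing the data. The cause was not tested. In the stronger 50% of each list, 49 genes (57.0%, against 37.7% of all) had start peaks in all 3 lists. Without 1 library, 66 to 68 had them in the remaining 2, against 46.5% to 52.1% of all. No paired analysis was possible, because the labels link no library of 1 line to a library of the other, and a shared replicate number is not a pairing. Depth is unknown, so a missing peak does not show that the mark is absent.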

Other observations

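Small nucleolar RNAs guide the modification of ribosomal RNA, and many are encoded in introns of ribosomal protein genes. Of the 86 genes, 29 held 1 or more annotated snoRNA genes, and 20 of these had start peaks in all 3 lists (69.0%), against 43 of 57 genes with none (75.4%). The median rank of their start peaks was 80.3 in 786-O, with 76.2 and 79.5 in Caki-1, against 85.5, 76.2 and 81.3 for genes with none.

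Chromosome 19, the most gene-dense autosome, held 12 of the genes, of which 8 had start peaks in all 3 lists (66.7%), against 31.2% of all protein-coding genes there. On chromosome X the count was 4 of 4, against 32.8% of all, and on chromosome 16 it was 1 of 4, against 43.8%. These 3 chromosomes were chosen after their values were seen. Start peaks were shared with another gene's start at 24.0% of genes with such a peak in 786-O, with 22.9% and 23.3% in Caki-1, against 24.1%, 22.9% and 22.6% over all protein-coding genes.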
